A study of Homo sapiens with 20 samples.

Results

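The proteasome subunit genes were followed in WT Jurkat T lymphoblasts and in JinB8 cells, the CD47- line derived from them. The genes were taken by name, as the PSMA, PSMB, PSMC, PSMD, PSME, PSMF and PSMG genes of the constitutive proteasome with at least 200 counts summed over the 20 libraries, and 43 of the 60719 genes in the table met this rule. The count limit removed none of the genes with such a name, since the lowest sum, that of PSMG4, was 8800 counts. The 43 genes comprised 7 genes of the alpha ring and 7 of the beta ring of the core particle, 6 ATPases and 3 other subunits of the base, 8 subunits of the lid, 3 assembly chaperones of the base, 4 assembly chaperones of the core, 4 activators and 1 inhibitor.

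The proteasome degrades proteins that carry ubiquitin chains, and in T cells it also makes most of the peptides presented by major histocompatibility complex class I. Its core particle is a barrel of stacked alpha and beta rings, and the active sites sit on beta subunits inside it. The regulatory particle caps the barrel. Its lid and base bind and remove ubiquitin, and the ATPases of the base unfold the substrate and push it into the core. Activators open the core without ubiquitin or ATP, and dedicated chaperones build the rings in order and are not part of the finished particle.

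Jurkat is a human T cell leukemia line. JinB8 is a somatic mutant of Jurkat that is deficient in CD47, a receptor for thrombospondin-1 (TSP1). It is 1 line, so the loss of CD47 and any other difference of JinB8 from Jurkat cannot be told apart. Each line was kept in serum-free HITES medium. One untreated library (UT) was made per line, at 1 h, and single libraries were made at 1, 3 and 6 h for cells on immobilized anti-CD3 with anti-CD28 (CD3_CD28), for the same with 1 μg/ml TSP1 (CD3_CD28_TSP1) and for TSP1 alone. With 1 library for each condition, p-values at single times measure the spread between libraries of different treatments, which may be technical. In the comparisons of lines and of isoforms over all 20 libraries, without a time term, that spread also holds the change with time. In the model of treatment and time it is the spread that these terms leave over. Untreated cells were sampled at 1 h only, so time in culture and the time since treatment cannot be told apart.

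The libraries held 20483642 to 31737616 counts in WT cells and 16107921 to 28525524 in JinB8 cells. Levels are given as CPM, counts relative to library totals scaled by edgeR's TMM factors, and log2 fold changes between lines are JinB8 relative to WT. CD47 mRNA ranged from 253 to 372 CPM in the WT libraries and from 124 to 165 CPM in the JinB8 libraries. All 10 T cell markers were at 1 CPM or more in both lines. Of 4 B cell markers, CD79A reached 1 CPM in both lines, with a summed level of 34.1 to 54.2 CPM in WT and 4.36 to 10.4 CPM in JinB8 cells. The 4 myeloid markers were all under 1 CPM on average, and the 4 epithelial and 4 fibroblast markers summed to at most 3.74 and 12.3 CPM. The part of these differences in the results was not tested. One library stood apart. The JinB8 library given CD3_CD28_TSP1 for 3 h was the shallowest, and 32 of the 43 genes had their lowest JinB8 value in it, while PSMD5, PSMD12, PSME3 and PSME4 had their highest. Its median difference from the other JinB8 libraries at 3 h was −0.44 on the log2 scale over the 43 genes and −0.03 over all genes tested. TMM scaling keeps the median over all genes near 0, so the last value cannot show whether other genes differed as well. The median absolute difference over all genes was 0.29 in this library and 0.08 to 0.20 in the others, each against its own line and time. Its TMM factor was the highest, at 1.2. The main counts of proteasome genes that passed are given with and without it. Most values for single genes in the text are given with all libraries only. So are the isoform results and the 6 h counts of related genes of the pathway.

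Promoter sequences are shown for the 3 genes that changed most and the 3 that changed least between 1 and 6 h, by the mean absolute log2 fold change over both lines, so that the letters of responding and flat genes can be read side by side. They come from the RefSeq promoter table (GRCh38.p14), which had an entry for 37 of the 43 genes (no entry for PSMA7, PSMB1, PSMB6, PSMB7, PSMD4 and PSMG3). Each runs 5′ to 3′ from 250 bases before the RefSeq start to that start, or to the first exon of the gene that GENCODE version 44 places within these 250 bases. For PSMG4 and PSMG2, GENCODE has the gene begin further upstream (at 3231403 and 12658043), so these stretches lie inside the annotated gene but outside its exons. Capitals mark matches on either strand to TGACNNNGC, the core of the antioxidant response element to which NFE2L1 and NFE2L2 are known to bind, to CCAAT, to the GC box GGGCGG and to CCGGAAG, a site read by ETS factors. The 3 most changed were PSMG4 at chr6:3258697-3258896 (plus strand), PSMA5 at chr1:109426449-109426698 (minus strand) and PSMD9 at chr12:121888540-121888731 (plus strand).
PSMG4: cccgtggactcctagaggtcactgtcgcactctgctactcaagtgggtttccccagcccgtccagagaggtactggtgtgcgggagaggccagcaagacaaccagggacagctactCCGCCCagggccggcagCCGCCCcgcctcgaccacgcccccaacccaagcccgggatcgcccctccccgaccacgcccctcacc
PSMA5: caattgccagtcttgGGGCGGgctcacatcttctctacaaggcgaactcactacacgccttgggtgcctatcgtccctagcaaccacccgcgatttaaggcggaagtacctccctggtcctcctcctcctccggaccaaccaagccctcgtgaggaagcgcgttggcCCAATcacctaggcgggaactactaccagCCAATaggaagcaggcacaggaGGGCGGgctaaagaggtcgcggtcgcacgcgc
PSMD9: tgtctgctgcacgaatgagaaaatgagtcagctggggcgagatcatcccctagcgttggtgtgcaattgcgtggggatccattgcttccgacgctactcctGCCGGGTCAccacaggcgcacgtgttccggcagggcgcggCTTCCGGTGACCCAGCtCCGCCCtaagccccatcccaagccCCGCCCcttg

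The 3 least changed were PSMD14 at chr2:161308175-161308424 (plus strand), PSMC6 at chr14:52706950-52707177 (plus strand) and PSMG2 at chr18:12658488-12658550 (plus strand).
PSMD14: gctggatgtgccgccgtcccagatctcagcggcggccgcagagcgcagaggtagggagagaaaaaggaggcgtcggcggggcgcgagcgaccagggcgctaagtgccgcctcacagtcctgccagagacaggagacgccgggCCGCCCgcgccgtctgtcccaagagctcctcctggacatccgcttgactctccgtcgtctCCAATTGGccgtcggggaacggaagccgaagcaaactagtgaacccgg
PSMC6: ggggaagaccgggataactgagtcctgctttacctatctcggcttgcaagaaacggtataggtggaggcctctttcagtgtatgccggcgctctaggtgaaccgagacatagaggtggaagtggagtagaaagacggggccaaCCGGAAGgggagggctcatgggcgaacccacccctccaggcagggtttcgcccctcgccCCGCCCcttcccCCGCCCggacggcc
PSMG2: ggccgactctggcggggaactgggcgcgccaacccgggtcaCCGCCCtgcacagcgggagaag

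In the whole window of 250 bases, on both strands, TGACNNNGC was found before 10 of the 37 genes (27.0%) and before 12.1% of the 10698 tested genes with an entry. CCAAT was found before 16 of 37 (43.2%, against 35.9%), GGGCGG before 25 (67.6%, against 65.9%) and CCGGAAG before 9 (24.3%, against 15.9%). No motif separated the shown genes by their change with time. TGACNNNGC occurred before PSMD9, which rose most in WT cells, and also before PSMG2, which passed in neither line, where the match lies in the part not shown. In PSMD14 the CCAAT matches on the 2 strands overlap in the letters CCAATTGG. A match in these letters is a description of the sequence and was not tested as a binding site.

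The 43 genes together took a median of 0.336% of all counts in WT cells at 1 h, 0.389% at 3 h and 0.464% at 6 h. In JinB8 cells the medians were 0.377%, 0.398% and 0.464%. Compared per transcript length, as TPM (relative transcript number) within each line, levels of the 43 genes spanned a 17.1-fold range in WT cells and an 18.6-fold range in JinB8 cells. PSMA6, an alpha ring subunit, was the highest, at 178 ± 27.7 TPM in WT and 231 ± 17.3 TPM in JinB8 cells (SD, n = 10 each). PSMG4, a core assembly chaperone, was the lowest, at 10.4 ± 2.89 and 12.4 ± 3.96 TPM. The 14 core subunits, which the finished particle holds in equal number, ranged from 32.2 TPM (PSMA5) to 178 TPM in WT cells. The median level of the alpha ring was 117 TPM, of the beta ring 94.9 TPM, of the lid 49.9 TPM, of the base ATPases 43.6 TPM and of the core chaperones 31.8 TPM in WT cells. The neighbours PSMC6 and PSMC5 (43.7 ± 3.92 and 43.5 ± 6.52 TPM in WT cells) lay within their spread of each other, as did most neighbours in the order. With each gene's count divided by the length of its most abundant transcript instead, PSMA6 was still the highest and PSMG4 the lowest. They were at 179 and 3.65 TPM in WT cells, so the range was wider. The lowest core gene in WT cells was then PSMB2 (21.5 TPM), below PSMA5 (25.5 TPM).

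**Figure D1:**
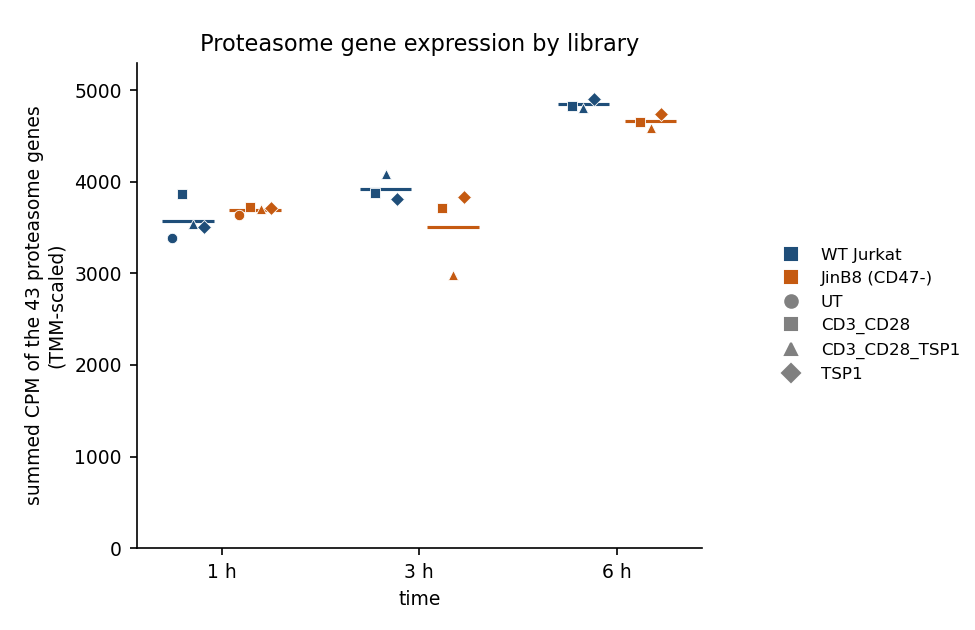
Summed CPM of the 43 proteasome genes in each of the 20 libraries by time, with lines at the mean of each line and time. The 6 h libraries lie between 4590 and 4906 CPM, above every 1 h library (3391 to 3869 CPM), and the JinB8 CD3_CD28_TSP1 library at 3 h is the lowest at 2983 CPM.

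Proteasome genes were higher at 6 h than at 1 h in both lines. In WT cells their summed level was 3576 ± 205 CPM at 1 h (n = 4), 3925 ± 139 CPM at 3 h (n = 3) and 4850 ± 50.4 CPM at 6 h (n = 3). In JinB8 cells it was 3696 ± 37.7, 3510 ± 461 and 4661 ± 75.2 CPM. The 3 h mean in JinB8 cells was 3774 CPM (n = 2) without the JinB8 CD3_CD28_TSP1 library, above the 1 h mean instead of below it. In a model with a term for each treatment, 35 of 43 genes rose by 6 h in WT cells (81.4%) and 1 fell, at an adjusted p under 0.05 by edgeR's quasi-likelihood test, where 25.7% of all genes tested rose and 24.8% fell. In JinB8 cells 28 of 43 rose (65.1%) and 1 fell, against 26.0% and 27.0% of all genes. The median log2 fold change of the 43 genes was 0.37 in WT and 0.31 in JinB8 cells, and that of all genes was −0.0031 and −0.0034. Without the JinB8 CD3_CD28_TSP1 library at 3 h, 40 rose in WT and 31 in JinB8 cells, where 29.0% and 28.8% of all genes rose. With all libraries, the lines shared 27 genes that rose. The share of all genes that rose in both lines is not given here, so this overlap cannot be read against all genes. PSMA1, PSMA2, PSMA4, PSMA6, PSMD5, PSMD7, PSMD12 and PSMD13 passed in WT cells only and PSMD4 in JinB8 cells only, but with all libraries the difference between the lines passed for none of these 9. PSMC1, PSMC6, PSMD10, PSMD14, PSME1 and PSMG2 passed in neither line. Without that library, PSMD14 and PSMG2 passed in neither.

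The same was visible without a model. All 6 h libraries lay above all 1 h libraries for 39 genes in WT (90.7%) and 33 in JinB8 cells (76.7%), where 28.1% and 29.7% of all genes did so. They lay below for PSME4 in WT cells and for PSME4 and PSMD10 in JinB8 cells, where 28.4% and 31.4% of all genes did so. Paired by treatment, 40 genes in WT and 36 in JinB8 cells were higher at 6 h than at 1 h in each of the 3 treatments, as were 36.6% and 37.7% of all genes.

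All 14 core genes rose by 6 h in WT cells and 10 of 14 rose in JinB8 cells, 7 of 7 in the beta ring and 3 of 7 in the alpha ring (5 of 7 without the JinB8 CD3_CD28_TSP1 library at 3 h). The share of all genes that rose was 25.7% in WT and 26.0% in JinB8 cells (28.8% in JinB8 cells without that library). The summed level of the core was 1.46 times its 1 h level in WT and 1.33 times in JinB8 cells at 6 h. PSMA5, an alpha ring subunit, lies on chromosome 1 from 109399042 to 109426448 (GRCh38). In the order UT, CD3_CD28, CD3_CD28_TSP1 and TSP1 at 1 h, and without UT at 3 and 6 h, it had 71.9, 94.5, 74.7 and 77.9 CPM, then 81.7, 96.6 and 91.1 CPM, then 157, 142 and 158 CPM in WT cells. In JinB8 cells it had 83.1, 85.6, 82.3 and 87.5 CPM, 87.2, 64.2 and 97.9 CPM and 145, 137 and 144 CPM. The 6 h libraries were the highest in both lines, with log2 fold changes of 0.89 (SE 0.1099, adjusted p = 1.38e-05) and 0.74 (SE 0.1096, adjusted p = 6.46e-05). PSMA7, another alpha ring subunit (chromosome 20 from 62136733 to 62143440), had the largest change among core genes in JinB8 cells, with 107, 103, 106 and 97.7 CPM at 1 h, 124, 88.5 and 131 CPM at 3 h and 173, 165 and 177 CPM at 6 h (log2 fold change 0.74, SE 0.0960, adjusted p = 1.75e-05). The catalytic subunits rose in both lines. PSMB6 bears the caspase-like site, PSMB7 the trypsin-like site and PSMB5 the chymotrypsin-like site. PSMB6 rose by 0.76 in WT and 0.43 in JinB8 cells on the log2 scale. The smallest called core changes in WT cells were those of PSMA1 (0.24) and PSMB4 (0.28).

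Of the 17 genes of the regulatory particle, 13 rose in WT and 11 in JinB8 cells by 6 h, against 25.7% and 26.0% of all genes tested. The summed level of the regulatory particle was 1.33 times its 1 h level in WT and 1.24 times in JinB8 cells. PSMD1, the large scaffold of the base (chromosome 2 from 231056845 to 231173116), had 117, 111, 99.5 and 106 CPM at 1 h, 129.6, 136 and 132 CPM at 3 h and 189, 181 and 195 CPM at 6 h in WT cells. In JinB8 cells the same libraries had 95.0, 96.3, 97.8 and 99.9 CPM, 107, 101 and 122 CPM and 147, 149.7 and 152 CPM. At each step in WT cells the later libraries lay above the earlier ones. Its log2 fold changes were 0.84 (SE 0.0647, adjusted p = 1.78e-07) and 0.61 (SE 0.0646, adjusted p = 2.80e-06). Among the ATPases, PSMC3 had the largest rise in WT cells (0.73, and 0.695 in JinB8 cells) and PSMC4 in JinB8 cells (0.73, and 0.66 in WT cells). PSMC6, an ATPase of the same ring, had log2 fold changes of 0.14 and −0.0001 and did not pass with all libraries. In the lid, PSMD3 rose by 0.81 and 0.73, whereas PSMD14, the deubiquitinase of the lid, had values of 0.12 and 0.05 that did not pass. With all libraries, 4 of the 6 ATPases passed in each line. In the fit without the JinB8 CD3_CD28_TSP1 library at 3 h, PSMC1 and PSMC6 also passed in WT cells (edgeR adjusted p = 0.00457 and 0.0412), and PSMC6 alone did not pass in JinB8 cells.

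PSMD9, a base chaperone (chromosome 12 from 121888732 to 121918297), changed most of the 43 genes in WT cells. In WT cells it had 25.6, 26.9, 31.6 and 33.6 CPM at 1 h, 38.6, 40.1 and 42.0 CPM at 3 h and 59.3, 57.7 and 62.2 CPM at 6 h, with no overlap between the times (log2 fold change 0.96, SE 0.0893, adjusted p = 9.69e-07). The JinB8 libraries had 35.1, 30.8, 32.4 and 28.0 CPM, 39.0, 30.9 and 35.4 CPM and 46.1, 48.5 and 48.5 CPM (0.65, SE 0.0892, adjusted p = 3.04e-05). PSMG4, a core chaperone that works as a pair with PSMG3 (chromosome 6 from 3231403 to 3303373), changed most in JinB8 cells, with 12.5, 14.0, 14.3 and 12.7 CPM at 1 h, 16.2, 18.5 and 16.4 CPM at 3 h and 27.5, 30.6 and 27.1 CPM at 6 h (1.05, SE 0.104, adjusted p = 1.43e-06). In WT cells it had 14.5, 13.0, 15.4 and 17.1 CPM at 1 h and 23.8, 25.3 and 24.6 CPM at 6 h (0.70). PSMG1 (chromosome 21 from 39174769 to 39183488) had 25.8, 27.0, 26.6 and 23.7 CPM at 1 h, 29.6, 21.4 and 31.8 CPM at 3 h and 44.5, 43.1 and 41.6 CPM at 6 h in JinB8 cells (0.74, SE 0.108, adjusted p = 5.44e-05). In WT cells it had 28.5, 29.3, 29.8 and 31.1 CPM at 1 h and 38.1, 34.2 and 36.9 CPM at 6 h (0.28). Its partner PSMG2 had log2 fold changes of −0.07 in both lines, which did not pass. PSMD10, a base chaperone also known as gankyrin, was at 0.18 in WT and −0.19 in JinB8 cells, neither of which passed with all libraries. Both passed, in opposite directions, without the JinB8 CD3_CD28_TSP1 library at 3 h.

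Of the 4 activators, 2 rose and 1 fell by 6 h in each line. Among all genes tested, 25.7% rose and 24.8% fell in WT cells, and 26.0% and 27.0% in JinB8 cells. PSME3, which forms the nuclear activator ring (chromosome 17 from 42824385 to 42843760), had 43.2, 38.5, 40.4 and 37.7 CPM at 1 h, 54.9, 55.5 and 53.8 CPM at 3 h and 73.9, 69.4 and 66.3 CPM at 6 h in WT cells. In JinB8 cells it had 40.4, 43.1, 42.2 and 41.1 CPM, 50.1, 75.5 and 49.3 CPM and 67.6, 74.5 and 63.6 CPM, the value of 75.5 CPM at 3 h being that of the library that stood apart. Its log2 fold changes were 0.85 (SE 0.0973, adjusted p = 7.25e-06) and 0.70 (SE 0.0968, adjusted p = 3.50e-05). PSME4, a large single-chain activator (chromosome 2 from 53864069 to 53970993), was the only one of the 43 genes that fell in both lines. It had 101, 83.4, 78.8 and 73.9 CPM in WT cells at 1 h, 58.2, 61.5 and 54.3 CPM at 3 h and 48.7, 49.3 and 56.5 CPM at 6 h, and its 6 h change was −0.61 on the log2 scale (SE 0.173, adjusted p = 0.00909), which became −0.56 (adjusted p = 0.0508) without the WT CD3_CD28_TSP1 library at 6 h. The JinB8 libraries had 69.8, 81.4, 73.5 and 85.1 CPM at 1 h, 50.5, 102 and 57.8 CPM at 3 h and 46.8, 48.4 and 54.5 CPM at 6 h (−0.69, SE 0.173, adjusted p = 0.00405). PSME2 rose in both lines, and PSME1, with which it forms the interferon-inducible activator ring, passed in neither with all libraries and rose in WT cells without the JinB8 CD3_CD28_TSP1 library at 3 h. PSMF1, an inhibitor of the core, rose by 0.38 and 0.22. Exons of 10 of the 43 genes overlap those of a gene with at least 10% of their counts, on the opposite strand for 8 of them. The largest share was that of FTSJ3, with 179% of the counts of PSMC5. BECN1 had 147% of the counts of PSME3 and PMPCB, on the same strand, 87.8% of those of PSMC2. CEP76 had 75.8% of the counts of PSMG2, NRDE2 51.4% of those of PSMC1 and SLC22A23 24.6% of those of PSMG4. The strand setting of the counting is not given in the sources used here, so reads of such pairs may be mixed.

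**Figure D2:**
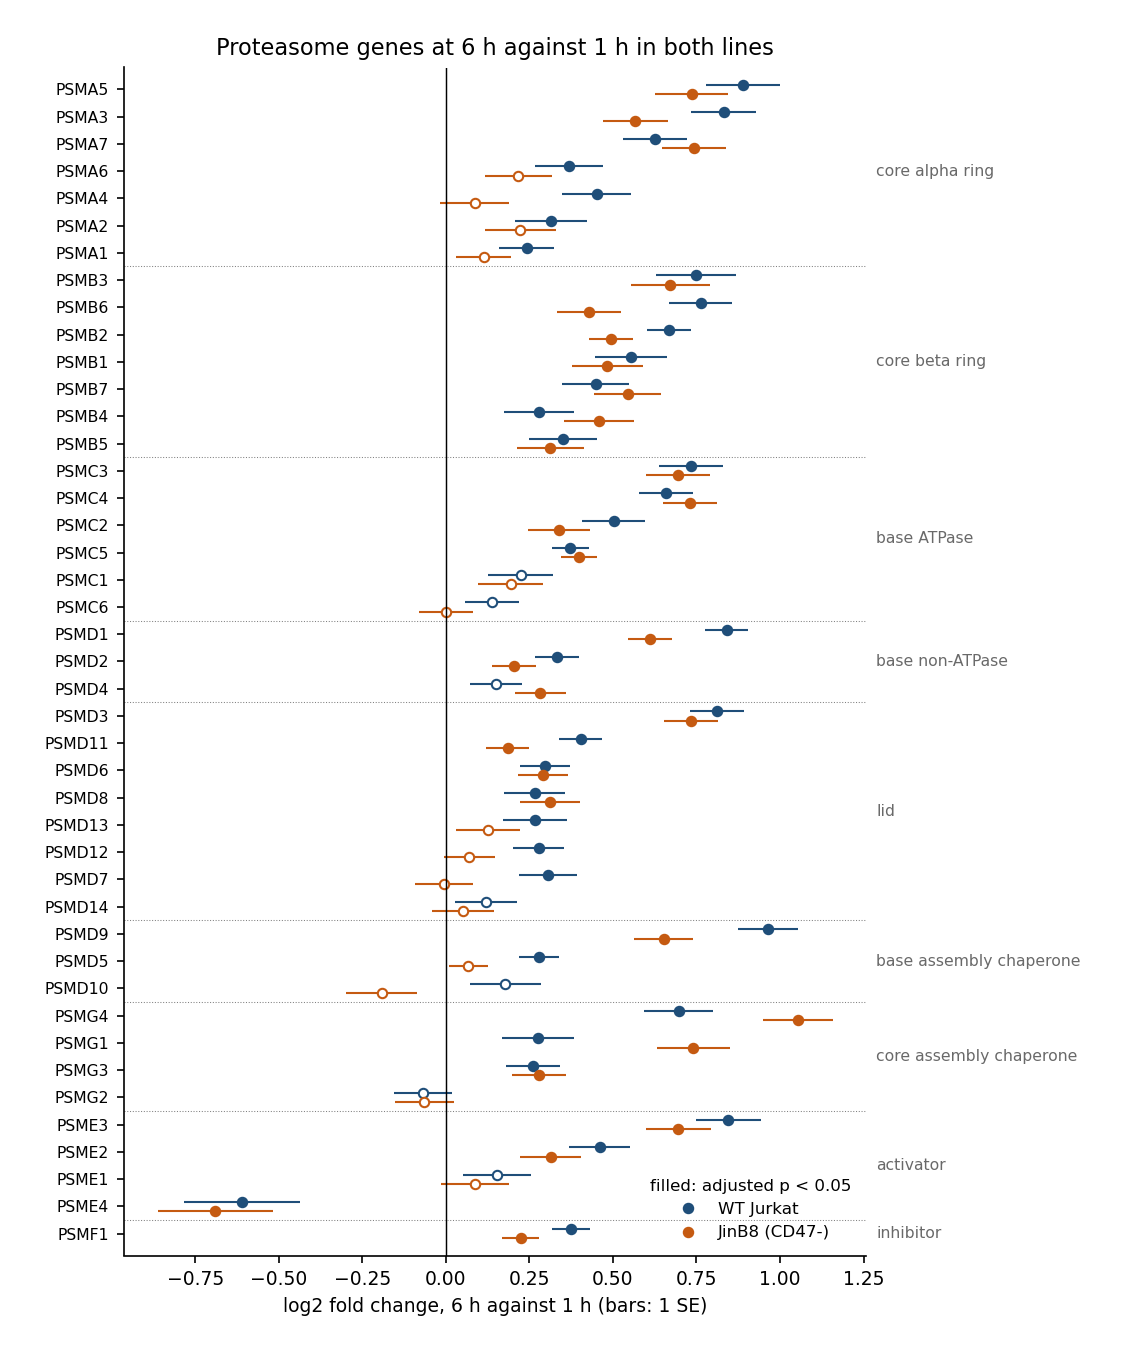
Log2 fold change at 6 h against 1 h for each of the 43 genes in WT Jurkat (blue) and JinB8 (orange) cells, grouped by role, with bars of 1 SE and filled points at an adjusted p under 0.05. Most genes lie right of 0 in both lines, PSMD9 is the highest in WT (0.96) and PSMG4 in JinB8 cells (1.05), and PSME4 lies left of 0 in both.

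At 3 h the lines gave different counts. In WT cells 13 genes had risen and 1, PSMD7 of the lid, had fallen, against 16.9% and 17.4% of all genes tested. PSME3 (0.49), the base chaperone PSMD5 (0.47), PSMC3 (0.41) and PSMD9 (0.39) had risen most. In JinB8 cells 4 genes had risen (PSME3, PSMG4, PSMD5 and PSMD12) and 9 had fallen, against 18.0% and 20.1% of all genes. Without the JinB8 CD3_CD28_TSP1 library, 11 had risen and 3 had fallen in JinB8 cells, with PSMB5, PSMD7 and PSME4 the 3 that were lower, against 18.9% and 18.5% of all genes, and the median of the 43 genes went from −0.06 to 0.06. The direction of the median at 3 h in JinB8 cells thus differs with and without 1 library. In WT cells 19 had risen and 3 had fallen in that fit, against 21.3% and 22.0%. Leaving out a different library could also lower the WT count at 3 h, and its range is given with the dependence on the processing.

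The change by 3 h differed between the lines for 1 gene, and the change by 6 h for 0. PSMB5 (chromosome 14 from 23016543 to 23035230) had 32.7, 44.4, 36.8 and 37.6 CPM at 1 h, 35.97, 45.4 and 40.2 CPM at 3 h and 49.95, 50.9 and 50.5 CPM at 6 h in WT cells, where the 1 h and 3 h libraries overlapped. In JinB8 cells it had 47.9, 46.2, 48.8 and 51.3 CPM at 1 h, 37.2, 29.0 and 35.3 CPM at 3 h and 62.5, 59.3 and 59.9 CPM at 6 h, so that each 3 h library lay below each of the others. The difference in the 3 h term was −0.56 (SE 0.144, adjusted p = 0.0445), and −0.46 (adjusted p = 0.0684) without the JinB8 CD3_CD28_TSP1 library. Of all genes, 2.02% had a more positive and 2.25% a more negative 3 h term in JinB8 cells. For the 6 h term these were 6.46% and 10.2%. DESeq2 and limma voom each called 1 of the 43 genes for the 6 h term, and 15.8% and 16.9% of all genes. Without adjustment, 10 of the 43 had p under 0.05 for it in edgeR, 8 of them with the more negative term in JinB8 cells, whereas 30.5% of all genes had such a p. The smallest adjusted p was 0.052, for PSMG1 (0.47, SE 0.153). Without that library, 8 of the 43 passed. The 6 h term in JinB8 cells was then more positive for PSMG1 and more negative for PSMA4, PSMB6, PSMD1, PSMD7, PSMD9, PSMD10 and PSMD11, against 10.6% and 15.4% of all genes in the same fit.

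With all libraries, 0 of the 43 genes passed in the 8 comparisons of treatments, 4 in each line. The share of all genes that passed was 0.0919% for CD3_CD28_TSP1 against TSP1 in WT cells and 0.0% in the other 7 comparisons. At an unadjusted p under 0.05, CD3_CD28 against UT gave 2 of the 43 genes in WT and 0 in JinB8 cells, where 8.32% and 4.02% of all genes had such a p. TSP1 against UT gave 2 and 0 (7.14% and 8.61% of all genes). CD3_CD28_TSP1 against CD3_CD28 gave 0 in WT and 8 in JinB8 cells (2.24% and 10.8%), and against TSP1 it gave 1 and 13 (5.0% and 16.1%). Without the JinB8 CD3_CD28_TSP1 library at 3 h the last JinB8 counts were 0 and 2 (2.93% and 9.25% of all genes), and the medians of the 43 genes went from −0.14 and −0.15 to −0.0030 and −0.02. By DESeq2 and limma voom with quantile normalization, 0 of the 43 genes passed in the 8 comparisons as well. The median of 2 SE over the 43 genes was 0.29 on the log2 scale in the comparisons with UT, of which 1 library was made per line, and changes of that size or less are within this error.

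Between the lines, 3 of the 43 genes were higher and 7 were lower in JinB8 cells over all 20 libraries (6.98% and 16.3%), where 19.8% and 20.6% of all genes tested were. The median log2 difference of the 43 genes was −0.01. This fit has no term for time, so the change of these genes with time is part of its error. Genes that did not pass in it may still differ. With all libraries, PSMD1, lower in 10 of 10 matched pairs, and PSMC5, higher in 10 of 10, did not pass in it. PSMD13, PSMD5 and PSMD4 were higher, and PSMB6, PSME1, PSMD6, PSMA4, PSME2, PSMG3 and PSMC6 lower. Without the JinB8 CD3_CD28_TSP1 library at 3 h, 8 were higher and 4 lower, against 21.3% and 20.5% of all genes. PSMA6, PSMB1, PSMC1, PSMC5 and PSMD7 were then also higher, and PSME2, PSMG3 and PSMC6 no longer passed (adjusted p = 0.0923, 0.0579 and 0.0633 by edgeR). With a block for the 10 pairs matched for treatment and time, 8 were higher and 12 lower, against 27.2% and 27.6% of all genes in that fit.

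PSMB6 (chromosome 17 from 4796144 to 4798502) differed most. In WT cells it had 51.1, 65.7, 56.1 and 52.8 CPM at 1 h, 71.5, 75.4 and 66.1 CPM at 3 h and 98.5, 95.7 and 101 CPM at 6 h, in the order of treatments given above. In JinB8 cells it had 36.7, 40.2, 39.7 and 40.9 CPM at 1 h, 40.2, 27.8 and 37.3 CPM at 3 h and 57.3, 52.3 and 53.3 CPM at 6 h. The lines did not overlap at any 1 time, and JinB8 was lower in 10 of the 10 pairs matched for treatment and time. The log2 difference was −0.79 (SE 0.144, adjusted p = 0.000121 by edgeR), with values of −0.52, −1.01 and −0.86 for the 1, 3 and 6 h libraries. Of the other catalytic subunits, PSMB5 (0.17) and PSMB7 (−0.03) did not pass over all libraries, and PSMB7 was at 0.04 without the JinB8 CD3_CD28_TSP1 library at 3 h. At single times PSMB5 was higher in JinB8 cells at 1 h (0.36, edgeR adjusted p = 0.00216) and 6 h (0.26, adjusted p = 0.0375) and lower at 3 h (−0.26, adjusted p = 0.0452). Its 3 h value was −0.14 (adjusted p = 0.303) without that library.

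PSME1 (chromosome 14 from 24136163 to 24138967) was the only one of the 43 genes whose libraries did not overlap between the lines with all 20 libraries. PSMD13 did not overlap either once the JinB8 CD3_CD28_TSP1 library at 3 h was left out. PSME1 ranged from 132 to 165 CPM in WT (median 144) and from 59.4 to 109 CPM in JinB8 cells (median 100), a log2 difference of −0.62 (SE 0.0870, adjusted p = 4.83e-06). Among all genes, 5.48% lay lower and 6.01% higher in JinB8 cells without overlap, and 6.27% and 6.98% when that library was left out. PSME2, its partner on the same chromosome (24143362 to 24147570), had a lowest, median and highest level of 62.5, 69.7 and 102 CPM in WT and 41.1, 61.2 and 82.8 CPM in JinB8 cells (−0.31, SE 0.121, adjusted p = 0.0436) and was lower in 10 of 10 pairs. Exons of EMC9 overlap PSME1 and exons of RNF31 overlap PSME2 on the opposite strand, with 12.4% and 21.7% of their counts. Genes within 1 Mb of PSME1 had a median log2 difference of −0.02 (56 tested, 11 higher, 8 lower), and those around PSMB6 one of 0.13 (41 tested, 12 higher, 5 lower). Of all genes tested, 19.8% were higher and 20.6% lower.

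PSMD6, a lid subunit (chromosome 3 from 64010550 to 64024010), ranged from 102 to 133 CPM in WT and from 69.8 to 103 CPM in JinB8 cells (medians 108 and 87.3), and was lower in 10 of 10 pairs (−0.36, SE 0.0772, adjusted p = 0.000727). PSMA4, an alpha ring subunit (chromosome 15 from 78540405 to 78552417), ranged from 134 to 201 CPM in WT and from 86.2 to 148 CPM in JinB8 cells (medians 162 and 133), also lower in 10 of 10 pairs (−0.34, SE 0.0940, adjusted p = 0.00593). On the other side, PSMD13, a lid subunit (chromosome 11 from 236966 to 252984), ranged from 81.4 to 111 CPM in WT and from 86.8 to 139 CPM in JinB8 cells (medians 92.0 and 126). It was higher in 9 of 10 pairs (0.36, SE 0.0821, adjusted p = 0.00105), the exception being the pair with the JinB8 CD3_CD28_TSP1 library at 3 h. Within 1 Mb of PSMD13, 43 other genes were tested, of which 16 were higher and 3 lower, with a median of 0.21. Of all genes, 19.8% were higher and 20.6% lower. Other regions also leaned 1 way. Around PSMF1 9 of 22 were higher and 0 lower (median 0.30), and around PSMD1 2 of 19 were higher and 9 lower (−0.26). PSMD5, a base chaperone (chromosome 9 from 120815496 to 120842951), had a lowest, median and highest level of 35.8, 44.1 and 53.7 CPM in WT and 49.4, 54.2 and 64.1 CPM in JinB8 cells. It was higher in 10 of 10 pairs (0.31, SE 0.0794, adjusted p = 0.00333). PSMD4, a ubiquitin receptor of the base (chromosome 1 from 151254709 to 151267479), ranged from 84.0 to 106 CPM in WT and from 82.6 to 143 CPM in JinB8 cells (0.30, SE 0.0853, adjusted p = 0.00642).

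The counts by role are read against 19.8% of all genes higher and 20.6% lower, and 21.3% and 20.5% without the JinB8 CD3_CD28_TSP1 library at 3 h. Of the 14 core genes, 0 were higher and 2 lower. Of the 17 genes of base and lid, 2 were higher and 2 lower. Of the 7 chaperones, 1 was higher and 1 lower. Of the 4 activators, 0 were higher and 2 lower. When that library was left out, the core had 2 higher and 2 lower, the base and lid 5 and 1, the chaperones 1 and 0 and the activators 0 and 1. At single times, 12 were higher and 5 lower at 1 h (background 24.7% and 23.7%), 3 and 18 at 3 h (23.5% and 22.8%) and 6 and 11 at 6 h (22.5% and 24.1%). In the fit without that library the counts were 15 and 7 at 1 h (28.6% and 25.5% of all genes), 8 and 9 at 3 h (24.7% and 20.6%) and 9 and 13 at 6 h (26.0% and 26.5%). PSMC5, PSMD5 and PSMD13 were higher, and PSMB6, PSMD1, PSMD6 and PSME1 lower, at each of 1, 3 and 6 h. Without the library, PSMB1 and PSMD4 joined the higher genes and PSME2 the lower ones.

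**Figure D3:**
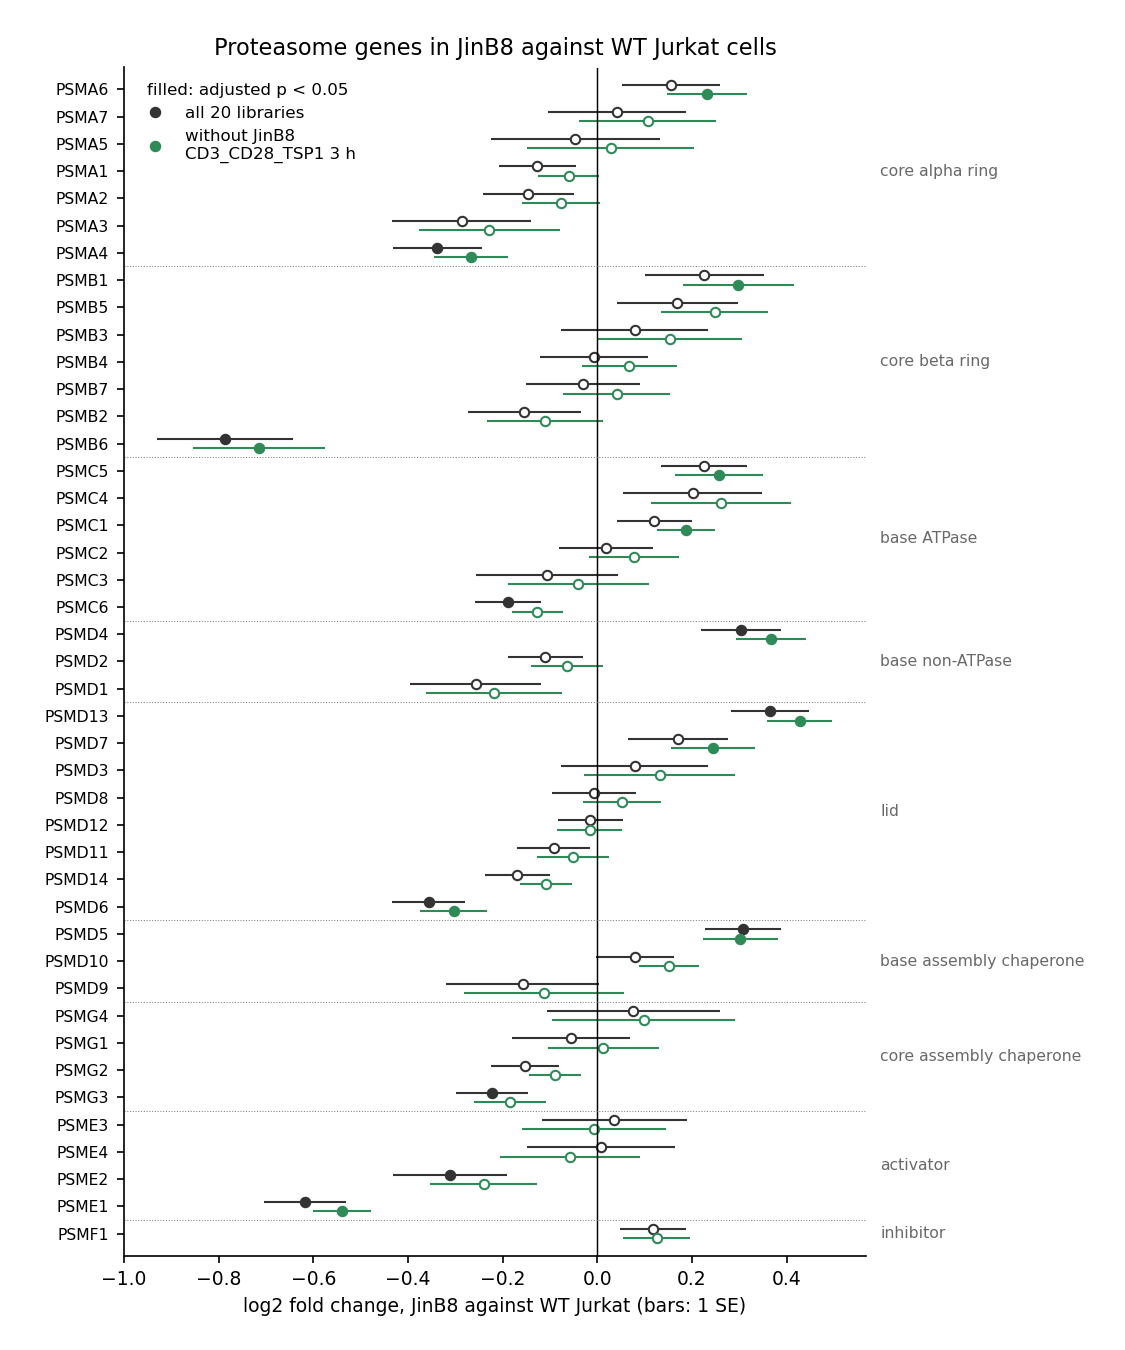
Log2 difference between JinB8 and WT Jurkat cells for each of the 43 genes by role, over all 20 libraries (black) and without the JinB8 CD3_CD28_TSP1 library at 3 h (green), with bars of 1 SE and filled points at an adjusted p under 0.05. PSMB6 (−0.79) and PSME1 (−0.62) lie furthest to the left and PSMD13 (0.36) furthest to the right.

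**Figure D4:**
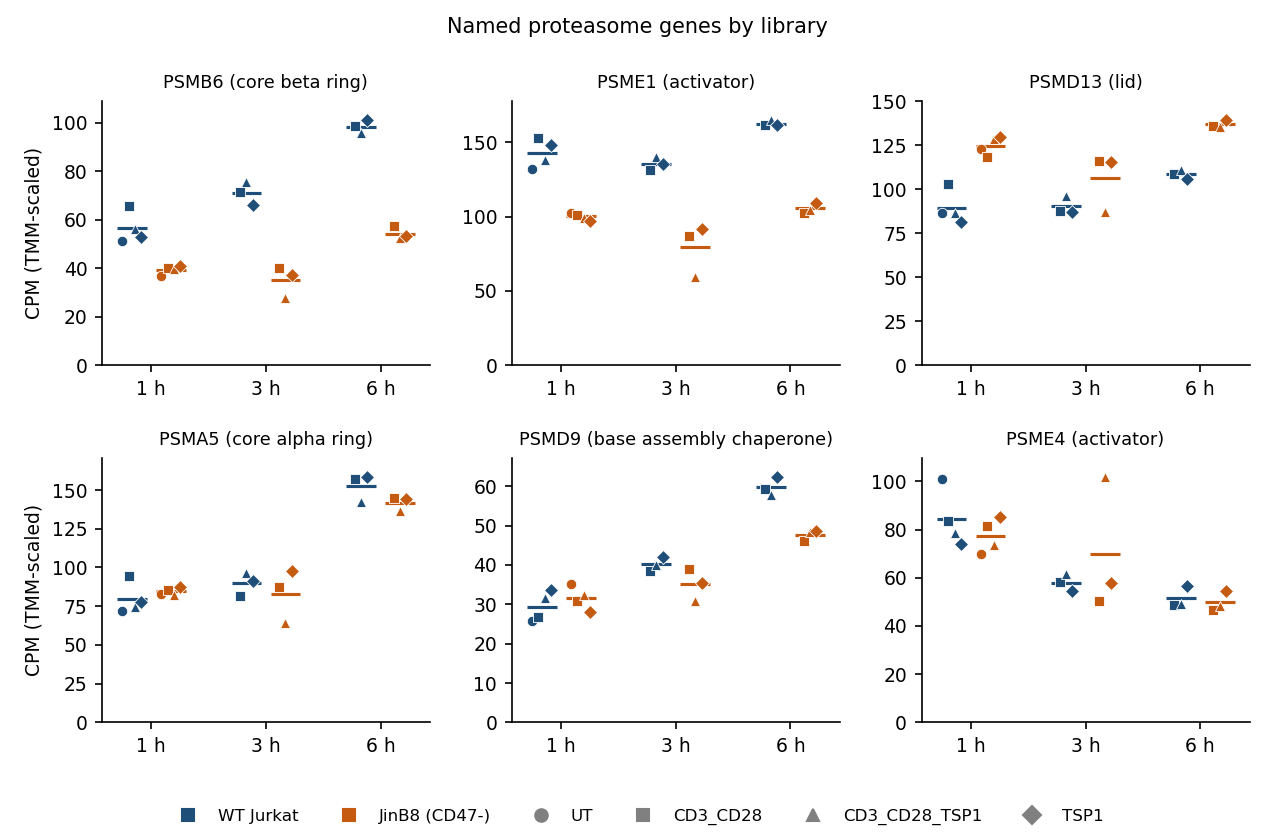
CPM by library for PSMB6, PSME1 and PSMD13, which differed between the lines, and PSMA5, PSMD9 and PSME4, which changed with time, with lines at the mean of each line and time. PSMB6 is lower in JinB8 cells at each time, PSMA5 and PSMD9 are highest at 6 h, and PSME4 in the JinB8 CD3_CD28_TSP1 library at 3 h (102 CPM) lies above the other JinB8 libraries.

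In the isoform table the 43 genes had 464 isoforms, and 39 of the genes had 1 isoform that took at least 50% of their counts in both lines. Of 271 isoforms tested, 19 differed between the lines (8 higher, 11 lower in JinB8 cells), where 15.1% of all isoforms tested did. They included the main isoforms of PSMB6 (log2 difference −0.82, SE 0.165), PSME1 (−0.59, SE 0.0954), PSMD13 (0.42, SE 0.0934) and PSMD5 (0.32, SE 0.0925). Of the 71 isoforms with at least 10% of their gene's counts in either line, 4 shifted their share by at least 5 points, and 0 had shares that did not overlap between the lines. Of such isoforms of all genes tested, not matched for depth, 30.7% shifted and 0.525% did not overlap. The 4 were PSMD9-207 (from 40.2 ± 9.41% in WT to 33.0 ± 4.78% in JinB8 cells), PSMD11-201 (56.8 ± 3.37% to 49.9 ± 3.50%), PSMD11-202 (28.6 ± 3.17% to 34.9 ± 2.72%) and PSMD6-201 (55.6 ± 13.8% to 50.4 ± 11.9%; SD, n = 10 each). The level of none of these 4 isoforms passed between the lines (edgeR adjusted p from 0.138 to 0.295).

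Related genes of the pathway were counted from a list of 34, of which 33 were tested. It held the immunoproteasome subunits, subunits and chaperones with other names, ubiquitin genes, shuttle receptors, the VCP complex and regulators of proteasome genes. At 6 h 11 had risen and 6 fallen in WT cells, and 14 had risen and 6 fallen in JinB8 cells, with medians of 0.19 and 0.07. Of all genes tested, 25.7% had risen and 24.8% fallen in WT cells, and 26.0% and 27.0% in JinB8 cells. The immunoproteasome subunit PSMB10, which takes the place of PSMB7, had 12.1 to 20.04 CPM at 1 h and 40.6 to 42.1 CPM at 6 h in WT cells (1.27, SE 0.165, adjusted p = 2.06e-05), and 7.62 to 14.5 and 31.5 to 34.0 CPM in JinB8 cells (1.71, SE 0.171, adjusted p = 1.58e-06). POMP, the chaperone of the beta ring, rose by 0.67 and 0.54. VCP, the segregase that hands substrates to the proteasome, rose by 0.84 and 0.44. NFE2L2 fell by 0.91 in WT cells and by 0.40 in JinB8 cells on the log2 scale. Between the lines 3 of these genes were higher and 9 lower in JinB8 cells, against 19.8% and 20.6% of all genes. Without the JinB8 CD3_CD28_TSP1 library at 3 h, 4 were higher and 8 lower, against 21.3% and 20.5%. RAD23B then joined the higher genes, and UBA1 no longer passed as lower. NFE2L1, the transcription factor known to raise proteasome genes when proteasome activity is low, had 80.2 ± 4.84 CPM in WT and 138 ± 5.55 CPM in JinB8 cells (SD, n = 10 each; 0.78, SE 0.05, adjusted p = 1.65e-11). PSMB9, the immunoproteasome counterpart of PSMB6, had 17.6 ± 2.37 and 10.5 ± 1.59 CPM (−0.74, SE 0.0993, adjusted p = 2.44e-06). The other immunoproteasome subunits did not pass, with values of 0.14 for PSMB8 and −0.365 for PSMB10. UBA6, an enzyme that activates ubiquitin, was also lower (−0.61, SE 0.108, adjusted p = 9.06e-05).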

How the data were processed

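RNA from 10 WT Jurkat and 10 JinB8 libraries was analysed. Per the authors, reads were trimmed (Cutadapt 1.18), mapped to GRCh38 by STAR 2.4.2a in 2-pass mode and quantified by RSEM 1.3.3 on GENCODE 36. The deposited values are RSEM expected counts per gene and per isoform, not scaled by depth or length. In each table, 2 further columns belong to no sample of the series and were not used. The study's removal of a batch with ComBat was not repeated, since the batch is not given in the sources used here.

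Expected counts were rounded for edgeR 4.0.16 and DESeq2 1.42.0 and left as they were for limma 3.58.1 (R 4.3.3). Of 60719 genes, 16327 passed filterByExpr by line (minimum count 10, minimum total 15), among them all 43 proteasome genes. After TMM scaling, the quasi-likelihood test of edgeR was used with Benjamini-Hochberg adjustment across the tested genes and a call at 0.05. The SE is the absolute log2 fold change over the square root of F. Lines were compared over all 20 libraries without further terms, and at each time on 6 means of line and time. Time and treatment were tested in one additive model of treatment and time within each line, and differences between lines in the time terms as interactions. TPM was computed from isoform counts and GENCODE 44 lengths, which covered 99.07 to 99.24% of counts. Matched pairs were compared on log2(CPM + 0.5). The scripts were tested on simulated data. Within each line and time, every pair of libraries differed by more than counting noise (smallest chi-square per gene 4.68).

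The 43 genes were taken by name. They, the roles, the list of 34 related genes and the tests were chosen with earlier results of these data known. Any of the 43 could be named. Fuller values were given for up to 4 called genes with the largest changes in each direction, for the comparison of lines, the 6 h change and the difference between lines in time, and for the extremes of a role. Related genes named in the Results are a selection, not a ranking by size of change. NFE2L3 (higher in JinB8 cells) and UBQLN2 (lower), which passed between the lines, are not named there. Nor is PSMA8, at 4.29 to 5.25 CPM at 1 h and 10.5 to 12.6 CPM at 6 h in JinB8 cells. Promoters were shown for the 3 most and 3 least changed with time. Alternatives were upper-quartile factors, DESeq2, limma voom with quantile normalization, other filters, a block for matched pairs, a time term, subsets of pairs, other time models and leaving out each library.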

Additional observations from a re-analysis of the deposited data

Results flagged for a closer look

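In the 86 groups of 4 libraries (43 genes at 1 h in each line), 4 had 1 library far from the other 3, where chance alone gives about 1 in 20 groups. PSMB4 was at 162 CPM in the WT CD3_CD28 library, above the others. PSMB7 was at 94.1 CPM in the untreated JinB8 library, above the others by a small amount. PSMC4 was at 71.6 CPM in the JinB8 TSP1 library and PSMD3 at 49.4 CPM in the JinB8 CD3_CD28 library, each below the others. Groups at 3 and 6 h hold 3 libraries and were not examined in this way.

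The 3 h change of PSMB5 differed between the lines by −0.56 on the log2 scale (edgeR adjusted p = 0.0445). It was −0.53 in JinB8 and 0.03 in WT cells. The call was lost in 16 of the 20 fits that left out 1 library.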

How the results depend on the processing

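Between the lines, 3 genes were higher and 7 lower. With a replicate block of the matched pairs these counts were 8 and 12, with a time term 9 and 13 (29.2% and 29.6% of all genes), in the 6 activated pairs 1 and 4 (13.1% and 11.7%), in the 4 pairs without activation 1 and 1 (9.16% and 7.25%), and without a low-count filter 4 were lower (8.82%). The pairs share treatment and time by the labels, not a culture. Without that filter, where 41107 genes were tested instead of 16327, the lines at 3 h differed in 12 genes (21 with it). In the same setting 1 gene, PSMD10, passed in the treatments. Its comparison and direction are not given here. With each line fitted alone, 6 genes changed by 3 h in JinB8 cells (13 together). With the lines together, 18.0% of all genes rose and 20.1% fell by 3 h in JinB8 cells. The share with each line fitted alone is not given here, so this drop cannot be read against all genes. The 3 h difference gave 2 genes with DESeq2, limma voom, no filter, a 1 CPM filter or means of line and time (1 otherwise). The 6 h difference gave 1 with upper-quartile factors and the first 4 of these, and 2 with the means (0 otherwise). DESeq2 and limma voom called 15.8% and 16.9% of all genes for the 6 h difference. Shares of all genes are not given here for the other alternatives of the 3 h and 6 h differences. Nor are they given for the lines at 3 h or for the treatments without the filter.

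Leaving out 1 library at a time gave 3 to 8 higher and 4 to 8 lower genes between the lines, with both extremes that differ by over 1.5 times coming without the JinB8 CD3_CD28_TSP1 library at 3 h. The ranges were 8 to 22 for the 3 h change in WT and 6 to 16 in JinB8 cells, 0 to 2 and 0 to 8 for the 3 h and 6 h differences, and 0 to 1 for treatments, the 1 without that JinB8 library. The 3 h WT count moved by over 1.5 times without the WT CD3_CD28_TSP1 or TSP1 library at 1 h, the WT CD3_CD28_TSP1 library at 3 h or that JinB8 library, and the 3 h JinB8 count without the JinB8 CD3_CD28 or CD3_CD28_TSP1 library at 1 h. The 6 h rises ranged from 26 to 40 genes in WT and from 22 to 31 in JinB8 cells. The share of all genes shifted as well. By 3 h in WT cells, 16.9% of all genes rose and 17.4% fell with all libraries. Without the JinB8 CD3_CD28_TSP1 library at 3 h these were 21.3% and 22.0%. For the other libraries left out, shares of all genes are not given here. Those counts therefore cannot be read against all genes. In these fits the libraries of both lines share an estimate of the spread, so calls in WT cells also depend on the JinB8 libraries. Without that JinB8 library the median 3 h change of the 43 genes in WT cells went from 0.1248 to 0.1254. The cause of these shifts was not tested.

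Among single genes, in the 4 pairs without activation the line calls of PSMD5 (0.28), PSMD4 (0.41), PSMB6 (−0.67), PSMD6 (−0.30) and PSMA4 (−0.21) were lost, and in the 6 activated pairs those of PSMD13 (0.30) and PSMD4 (0.26), where fewer samples were used. PSME1 passed under each alternative. None of the called genes given in full reversed in the alternatives run. Without the JinB8 CD3_CD28_TSP1 library at 3 h, the median of the 43 genes changed sign between the lines (−0.01 to 0.01) and for the 3 h change in JinB8 cells (−0.06 to 0.06). Treatment effects at single times were not tested.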
